A study of Mus musculus with 141 samples.

Results

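The acute-phase genes of adipose tissue are described here as 9 transcripts chosen by name: *Saa1*, *Saa2*, *Saa3*, *Lcn2*, *Orm1*, *Orm2*, *Hp*, *Serpina3n* and *Lbp*. Each matched 1 Ensembl identifier, and they are 9 of the 36558 genes in the count and TPM tables. Expression was measured by RNA-seq of bulk inguinal white adipose tissue (iWAT, labelled as subcutaneous adipose) of the Hybrid Mouse Diversity Panel (HMDP), which gathers inbred strains of mice. The female group has 67 libraries and the male group 74. They cover 82 strains, no strain has more than 1 library of a sex, and 59 have both. All mice in both groups came from inbred or recombinant inbred strains bred in-house, ate a diet rich in fat and sucrose (HF/HS) for 8 weeks, starting when they were 8 weeks old, and had no food in the last 4 h before collection. One BXD line, BXD24/TyJ-Cep290<rd16>/J, carries the rd16 allele of *Cep290* in its name. No group had another diet in these libraries. By strain name, 24 strains are classical inbred strains, 40 are BXD lines (bred from C57BL/6J and DBA/2J), 11 are AXB/BXA, 4 are BXH and 3 are CXB lines. Nothing in the labels says whether a library holds RNA of 1 mouse or of several, so with 1 library per sex and strain the spread of a strain is seen only through the agreement of its female and male library.

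Acute-phase proteins are secreted in large amounts when tissue is injured or infected. Liver is their best known source, and cytokines of the IL-6, IL-1 and TNF families induce them through STAT3, C/EBP and NF-kB transcription factors. White fat also makes them: adipocytes secrete haptoglobin, orosomucoid and lipocalin 2, and *Saa3* is the serum amyloid A gene made outside the liver, in adipocytes and macrophages. Several of these transcripts are known to rise in obese fat.

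In the GRCm38 annotation, *Saa3* (chr7:46711998-46715700, minus strand), *Saa1* (chr7:46740497-46742980, minus strand) and *Saa2* (chr7:46751790-46754313, plus strand) lie near each other, with *Saa4* between *Saa3* and *Saa1*. *Orm1* (chr4:63344560-63348163) and *Orm2* (chr4:63362449-63365878) flank *Orm3* on the plus strand of chromosome 4. *Lcn2* (chr2:32384633-32388252, minus strand), *Lbp* (chr2:158306493-158332852, plus strand) and *Hp* (chr8:109575128-109579172, minus strand) lie apart from the other members. *Serpina3n* (chr12:104406729-104414329, plus strand) lies in a gene cluster with *Serpina3m* and *Serpina3c*.

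Reads of the near-identical copies are hard to assign. In GENCODE M21 transcripts, 46.8% of the 31-base words of *Saa1* and 44.5% of those of *Saa2* also occur in another *Saa* member. For *Saa3* it was 1.16%, and *Saa4* was left out of this comparison. The shares were 27.5% for *Orm1*, 32.2% for *Orm2* and 9.42% for *Orm3*. Values of *Saa1*, *Saa2*, *Orm1* and *Orm2* are therefore uncertain where the authors' quantification split reads between copies. The share was not computed for *Serpina3n* and its neighbours in the cluster.

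The stretches upstream of 4 genes are shown because *Saa1* and *Saa2* are nearly the same sequence there, while *Saa3* and *Serpina3n* are different sequences whose transcripts correlated across libraries in both sexes. Sequences are from RefSeq (build GRCm38.p6), written 5′ to 3′ toward the start of the gene, without bases that GENCODE M21 places in an exon. Capitals mark matches, on either strand, to the letters TTGCNNAA (the C/EBP motif) or to the NF-kB motif.
Saa1, chr7:46742981-46743230, minus strand: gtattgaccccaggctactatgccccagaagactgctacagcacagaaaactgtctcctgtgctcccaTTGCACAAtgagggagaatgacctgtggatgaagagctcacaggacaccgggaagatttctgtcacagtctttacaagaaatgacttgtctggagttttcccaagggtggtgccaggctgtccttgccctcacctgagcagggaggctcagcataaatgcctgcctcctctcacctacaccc
Saa2, chr7:46751583-46751789, plus strand: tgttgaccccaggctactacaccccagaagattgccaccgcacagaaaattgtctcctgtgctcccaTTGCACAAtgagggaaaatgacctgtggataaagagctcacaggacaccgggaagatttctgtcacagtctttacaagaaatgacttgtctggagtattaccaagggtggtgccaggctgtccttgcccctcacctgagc
Saa3, chr7:46715701-46715926, minus strand: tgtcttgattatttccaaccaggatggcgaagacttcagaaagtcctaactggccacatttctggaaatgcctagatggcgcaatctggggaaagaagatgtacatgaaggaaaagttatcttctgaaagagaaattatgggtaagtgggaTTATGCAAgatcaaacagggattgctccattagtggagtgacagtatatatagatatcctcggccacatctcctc
Serpina3n, chr12:104406458-104406707, plus strand: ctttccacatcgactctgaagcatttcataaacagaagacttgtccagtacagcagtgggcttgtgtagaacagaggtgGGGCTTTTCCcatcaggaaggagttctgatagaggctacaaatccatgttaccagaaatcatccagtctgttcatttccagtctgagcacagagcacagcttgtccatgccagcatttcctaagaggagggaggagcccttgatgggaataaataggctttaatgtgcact

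RefSeq promoters were found for 6 of the 9 genes, and *Orm1*, *Hp* and *Lbp* had no entry. The 250 bases before the start of *Saa1* and of *Saa2* differ by 13 single-base changes, insertions or deletions. Over the same 250 bases, TTGCNNAA occurred in *Saa1*, *Saa2*, *Saa3*, *Lcn2* and *Orm2*, and in 9.57% of all 32817 promoters in the table. For *Lcn2* these bases lie inside the gene as GENCODE M21 places it, so that match is not upstream of the annotated gene. The NF-kB motif occurred in *Serpina3n* and in 1.41% of all promoters. The STAT motif TTCNNNGAA occurred in 7.01% of all promoters and in none of the 6. Each of the 6 promoters held 1 match in all. The matches describe the sequence and are not evidence of binding.

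Library totals ranged from 6269154 to 78562648 estimated counts, with a median of 30233245. At the median, 3 counts, taken as the floor of detection, equal 0.0992 CPM (counts scaled to library size). In 3 libraries the Y-linked genes went against the sex label: the libraries labelled female of BXD34/TyJ (also the shallowest) and BXD69/RwwJ, and the library labelled male of NZW/LacJ. Only NZW/LacJ is among the 59 matched strains. The tissue's own markers were present, with the summed TPM of 5 adipocyte markers between 5445 and 63720. The library of BXD34/TyJ held that lowest adipocyte sum. It also held the lowest macrophage, progenitor and endothelial sums of all libraries, and the highest Y-linked CPM. Its mesothelial sum was 30.3 TPM, against 6.71 TPM in the next library. It was kept in the female ranges and among the BXD lines, and the cause of its composition was not tested. The female library of AXB12/PgnJ stood apart as well, with 6514 TPM of adipocyte markers. It held the highest sum of 6 macrophage markers (6038 TPM, against 1454 TPM in the next female and 2613 TPM in the highest male). Its sum of lymphocyte markers was also the highest (982 TPM).

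TPM, which corrects for transcript length, allows levels to be ordered between genes, and the order of medians differed between the sexes by the place of *Lcn2* alone. In males the medians were 1350 TPM for *Hp*, 324 for *Orm1*, 174 for *Serpina3n*, 115 for *Lbp*, 20.7 for *Saa3*, 4.84 for *Lcn2*, 2.14 for *Orm2*, 0.242 for *Saa1* and 0.113 for *Saa2*. In females they were 367 TPM for *Hp*, 302 for *Orm1*, 88.03 for *Serpina3n*, 75.7 for *Lcn2*, 55.3 for *Lbp*, 7.30 for *Saa3*, 2.34 for *Orm2*, 0.383 for *Saa1* and 0.128 for *Saa2*. Neighbours such as *Hp* and *Orm1* in females, or *Saa1* and *Saa2* in either sex, had ranges that overlapped widely. Haptoglobin, which binds free hemoglobin, and the orosomucoid *Orm1*, a lipid and drug carrier, were thus the most abundant of the 9 transcripts in both sexes.

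**Figure D1:**
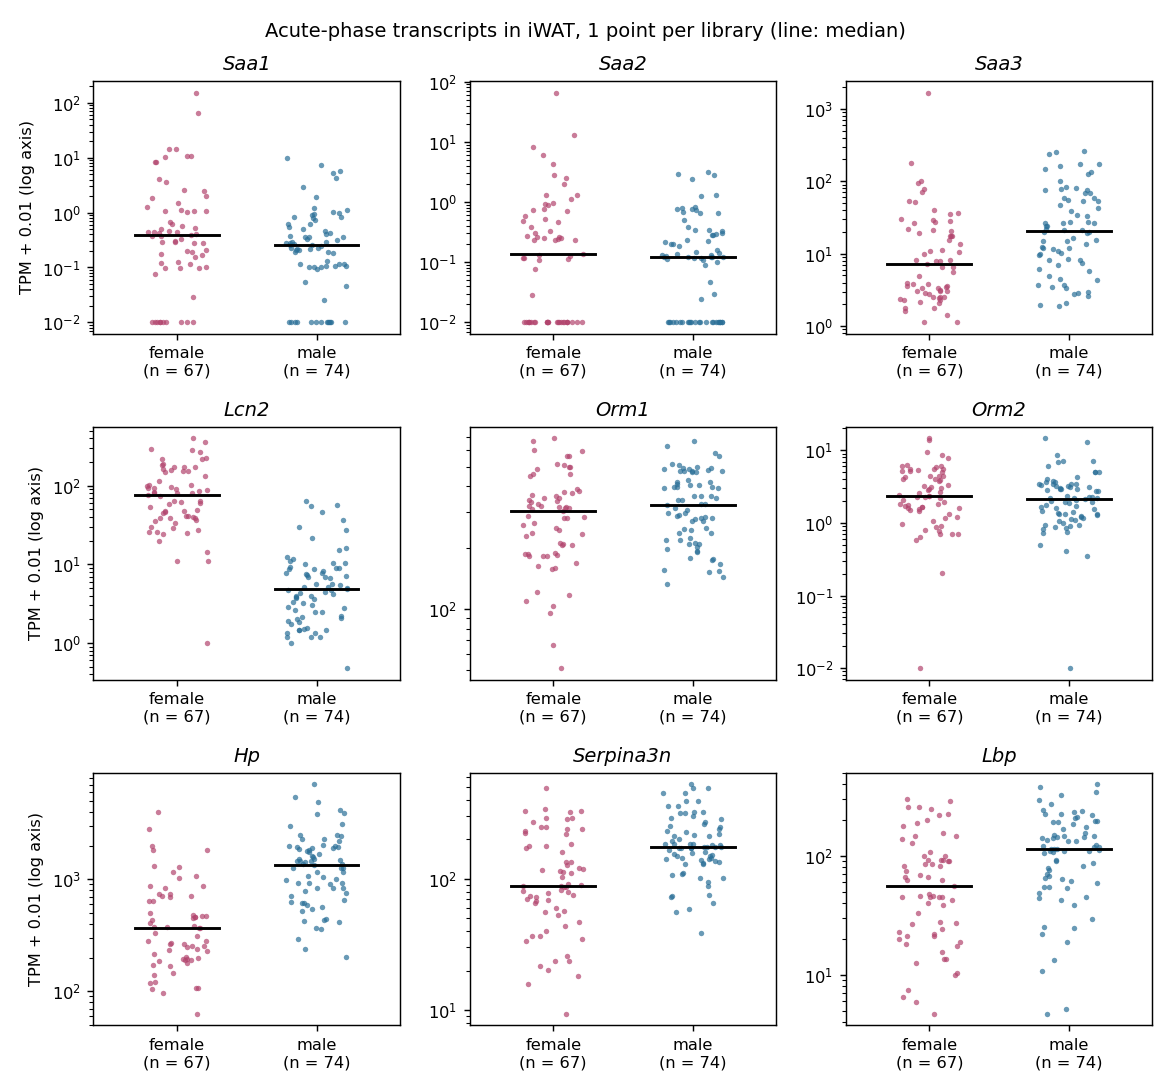
TPM (plus 0.01, log axis) of the 9 acute-phase genes in each of 67 female and 74 male libraries, with the median as a line; points at 0.01 are libraries with 0 TPM. For *Lcn2*, 35 of 67 female points lie above every male point, *Hp*, *Serpina3n*, *Lbp* and *Saa3* sit lower in females, and *Saa1* and *Saa2* are near 0 except in a few libraries.

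The sex comparison asks whether the transcripts differ between females and males of the same strain. The 59 matched strains were fitted as ~ Strain + Sex by the quasi-likelihood method of edgeR, log2FC is female vs. male, and an adjusted p under 0.05 was called. Of the 7 members that passed the low-count filter, 4 were lower in females (*Saa3*, *Hp*, *Serpina3n* and *Lbp*), 1 was higher (*Lcn2*), and *Orm1* and *Orm2* did not pass. Over all 16765 genes tested, 29.8% were lower and 28.4% higher in females, so a share of 5 in 7 is near the 58.1% called in either direction. The median log2FC of the 7 members was -0.63, against 0.01 over all genes tested. The counts per direction depend on the scaling: with TMM 4988 genes were lower and 4759 higher, and with library totals, which move the median of all genes to 0.12, 2774 were lower and 7410 higher. All 5 members called kept their direction and call with library totals and with RLE size factors.

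*Lcn2* encodes lipocalin 2, a siderophore-binding protein secreted by neutrophils, epithelia and adipocytes. Female libraries ranged from 1.0 to 398 TPM with a median of 75.7, and male libraries from 0.470 to 64.3 TPM with a median of 4.84. In 35 of 67 female libraries *Lcn2* was above the highest male library, and no male library reached the female median. The female of the strain had the higher value in 56 of 59 strains. Mean CPM was 62.8 ± 48.9 for females against 6.19 ± 9.34 for males (SD, n = 59). The log2FC was 3.86 ± 0.29 (SE, adjusted p = 4.2e-18, edgeR), a 14.5-fold difference. The 3 strains without a female excess were BXD24/TyJ-Cep290<rd16>/J, BXD44/RwwJ and BXD60/RwwJ. In BXD60/RwwJ the male library reached 56.7 TPM and the female 47.5 TPM.

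Female iWAT in mice lies along the mammary gland, and markers of mammary epithelium moved with *Lcn2*. All 9 mammary epithelial markers were higher in females, with a median log2FC of 6.90, and their summed TPM ranged from 1.70 to 4572 in females and from 0.380 to 554 in males. In males, the median of the defining basal keratins *Krt5* and *Krt14* was 0 TPM. Across the 67 female libraries *Lcn2* correlated with the mean log2 CPM of this list (Spearman's rho = 0.88, adjusted p = 0.00023, Pearson's r = 0.82, adjusted p = 0.00016, permutation tests), and rho was 0.87 without the 2 libraries farthest from the median. Across the 74 male libraries rho was 0.09 (adjusted p = 0.595) and r 0.35 (adjusted p = 0.0098, permutation tests), and r was 0.13 without the 2 libraries farthest from the median. The extremes matched: BXD56/RwwJ, SWR/J and KK/HlJ held the 3 highest female *Lcn2* values (398, 353 and 290 TPM) and the 3 highest female mammary sums (2445, 3465 and 4572 TPM). Both libraries labelled female whose Y-linked genes went against the label, BXD34/TyJ and BXD69/RwwJ, held the lowest *Lcn2* (1.0 and 10.99 TPM) and the lowest mammary sums (24.3 and 1.70 TPM). The highest male *Lcn2*, 64.3 TPM, was in NZW/LacJ, whose library also went against its label and held the highest male mammary sum of 554 TPM. PL/J had the next highest male sum (285 TPM) and 55.7 TPM of *Lcn2*, whereas in the BXD60/RwwJ male, with 56.7 TPM of *Lcn2*, the mammary sum was 1.98 TPM. Without NZW/LacJ log2FC was 3.92. How much of the sex difference the epithelium accounts for was not tested, and in bulk tissue more cells of a type and more RNA per cell cannot be told apart.

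*Hp*, the haptoglobin gene, showed the opposite direction. Female libraries ranged from 62.9 to 3961 TPM (median 367) and male libraries from 203 to 7064 TPM (median 1350). The groups overlapped, but 69 of 74 male libraries were above the female median and 5 of 67 female libraries above the male median. Within strains the male was higher in 56 of 59. Mean CPM was 482 ± 570 for females against 1356 ± 1034 for males (SD, n = 59). The log2FC was -1.73 ± 0.16 (SE, adjusted p = 9.4e-15, edgeR), which is 3.33-fold lower in females.

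*Serpina3n*, a secreted inhibitor of serine proteases, ranged from 9.34 to 490 TPM in females (median 88.03) and from 38.8 to 527 TPM in males (median 174). The male was higher in 50 of 59 strains, and log2FC was -0.98 ± 0.16 (SE, adjusted p = 4.7e-07, edgeR). *Lbp*, whose product carries bacterial lipopolysaccharide to CD14 and TLR4, ranged from 4.68 to 298 TPM in females (median 55.3) and from 4.71 to 400 TPM in males (median 115). It too was higher in the male in 50 of 59 strains, at log2FC = -0.98 ± 0.20 (SE, adjusted p = 3.7e-05, edgeR). For both genes the ranges of the sexes overlapped, and 12 of 67 female libraries lay below the lowest male library for *Serpina3n* and 1 for *Lbp*.

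*Saa3* varied widely between libraries, and 1 female library stood far above the rest. Female libraries ranged from 1.12 to 1677 TPM (median 7.30), and male libraries from 1.87 to 258 TPM (median 20.7). The female AXB12/PgnJ library held 1677 TPM, the next female libraries were I/LnJ with 177 and CBA/J with 100 TPM, and the male of AXB12/PgnJ held 4.28 TPM. The male was higher in 41 of 59 strains. Log2FC was -0.63 ± 0.21 (SE, adjusted p = 0.0092, edgeR), 1.55-fold lower in females, although mean CPM was 13.9 ± 53.96 for females against 11.6 ± 13.5 for males (SD, n = 59). This call depends on the model fitted: without the strain term (no replicate block) log2FC was 0.25 (adjusted p = 0.54), and in limma-voom with the strain term it was -0.39 (adjusted p = 0.25). Without AXB12/PgnJ it was -0.69 (adjusted p = 0.0010).

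*Orm1* and *Orm2* did not pass the test. *Orm1* ranged from 51.1 to 688 TPM in females and from 132.3 to 666 TPM in males, at log2FC = -0.15 ± 0.12 (SE, adjusted p = 0.28, edgeR) and a 95% interval from -0.39 to 0.08. *Orm2* ranged from 0 to 14.6 TPM in females and from 0 to 14.5 TPM in males, at log2FC = 0.29 ± 0.17 (SE, adjusted p = 0.13, edgeR) and an interval from -0.04 to 0.61. With library totals the *Orm2* value was 0.40 (adjusted p = 0.023). The groups overlapped over nearly their whole ranges for both genes. The lowest female value of both genes was in BXD34/TyJ, the library with the lowest adipocyte sum.

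*Saa1* and *Saa2*, the serum amyloid A genes that liver secretes into plasma, did not pass the filter. More than 3 counts of *Saa1* were found in 37 female libraries (of 67) and 27 male libraries (of 74), and of *Saa2* in 21 and 15. A few female libraries were far above the rest. BXD56/RwwJ held 155 TPM of *Saa1* and 65.7 TPM of *Saa2* (1542 and 636 counts). DBA/2J held 66.3 and 13.1 TPM (632 counts of *Saa1*), and SWR/J 14.4 and 8.04 TPM (155 and 88 counts). The males of these strains held at most 0.264 TPM of *Saa1* and 0.122 TPM of *Saa2*, and the highest male values were 9.97 TPM of *Saa1* in MA/MyJ and 3.19 TPM of *Saa2* in AXB5/PgnJ. Fitted without a filter, log2FC was 1.04 ± 0.49 for *Saa1* (SE, adjusted p = 0.11, edgeR) and 0.91 ± 0.52 for *Saa2* (adjusted p = 0.21), where 31.3% of genes were called, 15% as higher in females.

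The 7 hepatocyte markers, checked because liver makes *Saa1* and *Saa2*, summed to at most 1516 TPM in females and 2900 TPM in males, with medians of 34.2 and 40.8 TPM. Their highest male sums were in MA/MyJ (2900 TPM) and AXB5/PgnJ (2680 TPM), the same libraries that held the highest male *Saa1* and *Saa2*. In the BXD56/RwwJ female, which held the most *Saa1* and *Saa2*, the sum was 35.4 TPM, and in the DBA/2J female 23.8 TPM, both within the bulk of libraries. Among male libraries *Saa1* correlated with the hepatocyte list (rho = 0.37, adjusted p = 0.0073, Pearson's r = 0.54, adjusted p = 0.00026, permutation tests; r was 0.36 without the 2 libraries farthest from the median), and among female libraries rho was 0.13 (adjusted p = 0.44, permutation test), or 0.29 on log2(TPM + 1) (adjusted p = 0.049). The mammary epithelial markers moved with both genes in females: BXD56/RwwJ, DBA/2J and SWR/J held mammary sums of 2445, 1304 and 3465 TPM, above the female median of 582 TPM. Over the 67 female libraries rho with this list was 0.33 for *Saa1* (adjusted p = 0.030) and 0.38 for *Saa2* (adjusted p = 0.0095), while Pearson's r was 0.28 and 0.29 (adjusted p = 0.080 and 0.077, permutation tests). In these low counts the values are a description of few libraries, and the part of liver or mammary epithelial RNA in them was not tested.

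**Figure D2:**
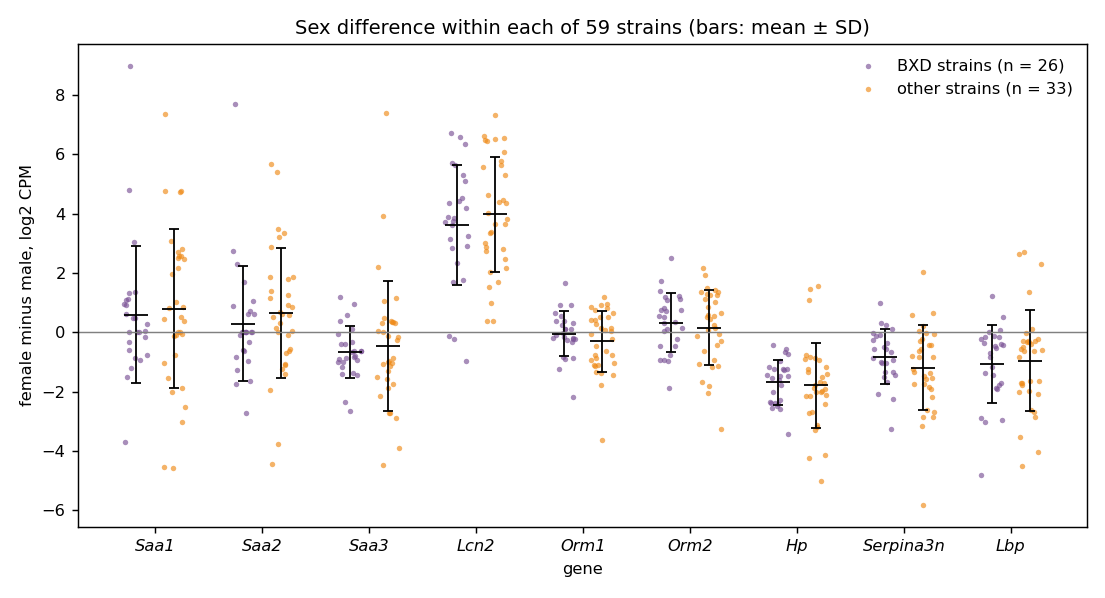
Female minus male difference (log2 CPM) of each gene within each of 59 strains, with BXD strains (n = 26) and other strains (n = 33) apart and bars for the mean ± SD. *Lcn2* lies above 0 in 56 strains and *Hp* below 0 in 56, and the means of BXD and other strains lie within 1 SD of each other for all 9 genes.

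The sex difference was compared between the 26 BXD strains and the 33 other strains, since the BXD lines segregate alleles of only C57BL/6J and DBA/2J. For *Lcn2* the mean female minus male difference was 3.63 ± 2.02 log2 CPM in BXD and 3.98 ± 1.94 in other strains (SD). For *Hp* it was -1.68 ± 0.75 and -1.78 ± 1.44, and for *Saa3* -0.66 ± 0.87 and -0.47 ± 2.19. No member passed the threshold (permutation tests with 100000 resamples, unadjusted p from 0.24 to 0.81, and 0.81 for every member after adjustment over the 9), and 0 of 9 passed before adjustment as well. This comparison was not made for all genes, so the general share that passes is not known. The difference of the differences ranged from -0.35 to 0.38 log2 CPM.

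Strain was tested as a term of the same fit, which asks whether the female and male of a strain resemble each other more than libraries of different strains. At an adjusted p under 0.05, 6 of the 7 members tested differed between strains, against 71.2% of all 16765 genes, so the share is near the background. *Saa3* had F = 4.61 (adjusted p = 1.6e-07, edgeR), and F = 3.36 (adjusted p = 2.7e-05) without AXB12/PgnJ. Over 10 alternatives its F was at least 1.63 and its adjusted p at most 0.048. Part of the F of *Saa3* can come from 1 library, since AXB12/PgnJ held 1677 TPM in the female and 4.28 TPM in the male. Agreement of females and males for *Saa3* passed by rho (0.29, adjusted p = 0.049) but not by Pearson's r (0.18, adjusted p = 0.26, permutation tests). *Hp* had F = 3.27 (adjusted p = 3.6e-05) and *Orm2* F = 3.09 (adjusted p = 7.8e-05). *Lbp*, *Orm1* and *Serpina3n* followed with adjusted p of 0.0098, 0.012 and 0.012. *Lcn2* did not pass (F = 1.45, adjusted p = 0.097), and its adjusted p stayed between 0.072 and 0.54 under 10 alternatives. Without a filter 8 of 9 members were called for strain, *Saa1* (adjusted p = 4.0e-05) and *Saa2* (0.00044) among them, against 37.8% of all genes. These last 2 calls can come from single libraries: BXD56/RwwJ, the strain with the most *Saa1*, held 1542 counts in the female and 1 in the male, and agreement in rank between females and males did not pass for either gene, with rho = 0.23 for *Saa1* (adjusted p = 0.11) and 0.02 for *Saa2* (adjusted p = 0.88, permutation tests).

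The extremes of strain were as follows. BXD60/RwwJ held the most *Hp* in both sexes (3961 TPM in the female, 7064 TPM in the male), and BXD24/TyJ-Cep290<rd16>/J held 1831 and 3836 TPM. SWR/J held 62.9 and 416 TPM of *Hp* and, with 20.2 and 38.8 TPM, the lowest mean of *Serpina3n*. 129X1/SvJ was high in *Serpina3n* in both sexes, at 490 and 489 TPM. CXB11/HiAJ was low in *Lbp* in both sexes, at 6.45 and 5.17 TPM, and KK/HlJ high, at 298 and 342 TPM. A/J was low in *Saa3* in both sexes, at 1.79 and 2.58 TPM.

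*Orm2* in CE/J was 0.192 TPM in the female and 0 TPM in the male, and *Orm3* was 0 TPM in both, while *Orm1* was 284 and 189 TPM. C57BL/6J held the most *Orm1* in females (688 TPM, and 582 TPM in the male). DBA/2J had the highest female *Orm2* (14.6 TPM, and 6.80 TPM in the male). The CE/J male was the only male library with 0 TPM of *Orm2*. The only female library with 0 TPM was BXD34/TyJ, the shallowest and the lowest in adipocyte markers.

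Females and males of the same strain agreed in rank for 6 of 9 members over the 59 strains (permutation tests, adjusted over the 9). This agreement was not computed for all genes, so whether 6 of 9 exceeds the general share is not known. Spearman's rho was 0.45 for *Hp*, 0.44 for *Lbp* and 0.44 for *Orm2* (each adjusted p = 0.0018), 0.32 for *Serpina3n* (0.033), 0.29 for *Saa3* (0.049) and 0.28 for *Orm1* (0.049). Pearson's r passed for 4 of the 9, at 0.44 for *Hp*, 0.34 for *Lbp*, 0.51 for *Orm2* and 0.30 for *Serpina3n*, and was 0.18 (adjusted p = 0.26) for *Saa3* and 0.27 (adjusted p = 0.064) for *Orm1*. Without the 2 strains whose female value was farthest from the median, rho was 0.39 for *Hp*, 0.49 for *Lbp*, 0.38 for *Orm2*, 0.35 for *Serpina3n*, 0.39 for *Saa3* and 0.31 for *Orm1*. For *Lcn2* rho was -0.10 (adjusted p = 0.51), and *Saa1* and *Saa2* did not pass, as given above.

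Whether the BXD parents bracketed the BXD lines varied by member and sex. Of *Orm1* in males, 27 of 34 BXD libraries lay between the parents, of *Hp* in females 20 of 32 and of *Serpina3n* in males 20 of 34. For *Serpina3n* and *Lbp* in females it was 3 of 32 each. For *Saa2* in females it was 31 of 32 and for *Saa1* in females 22 of 32. There the C57BL/6J female held 0 TPM of *Saa2* and 0.108 TPM of *Saa1*, and the DBA/2J female 13.1 and 66.3 TPM. No library can lie below 0 TPM, so the count for *Saa2* says only that 31 did not exceed DBA/2J. The *Saa3* level of C57BL/6J was 3.10 TPM in the female and 236 TPM in the male, and that of DBA/2J 10.4 and 32.8 TPM. Of the 32 female BXD libraries, 16 were above both female parents and 8 below both. Of the 34 male BXD libraries, 1 was above both male parents and 24 below both. The male C57BL/6J was likewise high in *Hp* (5388 TPM, with 1 of 34 male BXD libraries above both parents) and had the highest *Lbp* of all males (400 TPM). With 1 library per parent and sex, the error of a parent's value cannot be estimated.

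**Figure D3:**
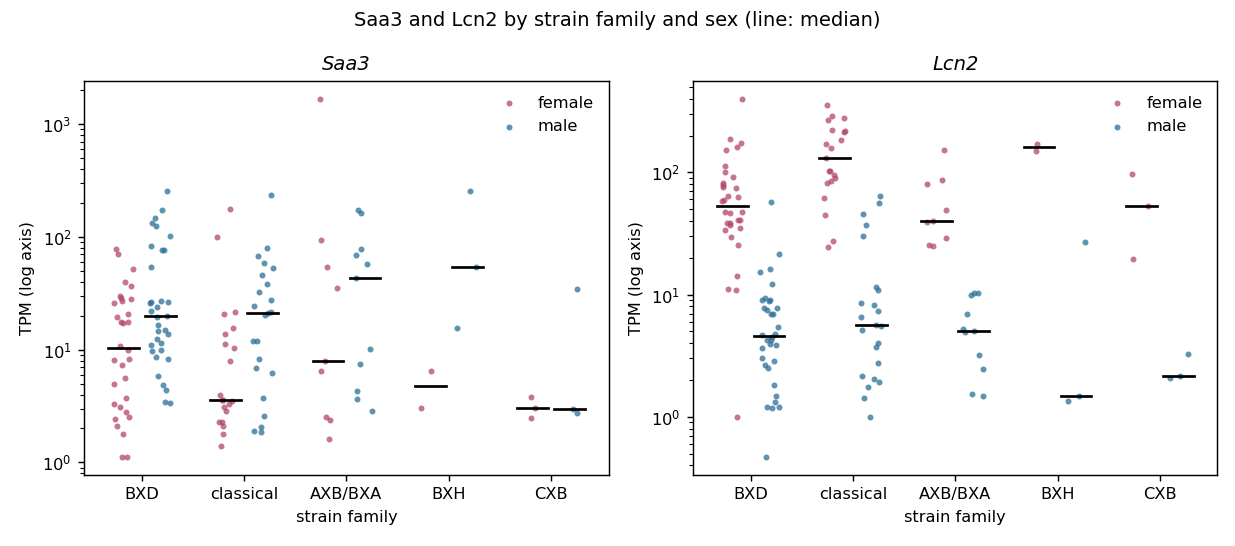
TPM (log axis) of *Saa3* and *Lcn2* in each library by strain family and sex, with the median as a line. The female AXB/BXA library at 1677 TPM of *Saa3* is AXB12/PgnJ, and female *Lcn2* is higher in classical strains (median 131.1 TPM) than in BXD lines (52.6 TPM).

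Families of strains were compared within each sex, with BXD as the reference. In females 1 of 7 members tested differed between families, against 4.39% of 15476 genes, and in males 0 of 7, against 9.09% of 14976 genes (edgeR; 2 of 7 in males, *Orm1* and *Lcn2*, had an unadjusted p under 0.05, and with limma on log2(TPM + 1) the count in males was also 0). The member called in females was *Saa3* (F = 6.96, adjusted p = 0.0074), at log2FC = 2.26 ± 0.61 (SE, adjusted p = 0.047) for AXB/BXA against BXD lines, a contrast in which 0.969% of genes were called. That value rests on 1 library: without AXB12/PgnJ F was 1.49 (adjusted p = 0.62) and the log2FC -0.41. Without BXD34/TyJ and BXD69/RwwJ, whose libraries went against their label, it was 3.04. Medians of female *Saa3* were 7.98 TPM in the 9 AXB/BXA, 10.4 in the 32 BXD and 3.56 in the 21 classical libraries.

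Female *Lcn2* ranged from 24.3 to 353 TPM in classical strains (n = 21, median 131.1) and from 1.0 to 398 TPM in BXD lines (n = 32, median 52.6). The ranges overlapped, at log2FC = 0.89 ± 0.30 (SE, adjusted p = 0.049, edgeR) for classical against BXD, where 8.11% of genes were called, while the test over all 5 families did not pass (adjusted p = 0.11). The mammary markers moved with it: their summed TPM had a median of 1060 in the classical females and 472 in the BXD females, and their part in this difference was not tested. Without the 2 libraries that went against their label it was 0.81 (adjusted p = 0.079). With both sexes in 1 limma-voom fit, in which strain was a random block and sex a covariate, it was 0.98 (adjusted p = 0.0055), and *Lbp* was lower in classical strains (log2FC -0.90, adjusted p = 0.013) where the female fit gave -0.78 (adjusted p = 0.14). In males, the BXD lines split into TyJ and RwwJ lines differed for *Orm1*, at a median of 394 TPM in 12 TyJ and 277 TPM in 22 RwwJ libraries (log2FC 0.67 ± 0.20, SE, adjusted p = 0.039, edgeR). In females the same split gave a higher *Saa3* in TyJ lines, at a median of 19.3 TPM in 9 TyJ and 9.86 TPM in 23 RwwJ libraries (log2FC 2.08 ± 0.62, SE, adjusted p = 0.012, edgeR). The ranges overlapped, from 2.10 to 70.5 TPM in TyJ and from 1.12 to 78.1 TPM in RwwJ libraries. BXD34/TyJ and BXD69/RwwJ, which went against their label, were included, and the split was not fitted without them. In the female fit without the split, leaving both out moved the *Saa3* log2FC of classical against BXD libraries from -0.66 to 0.11. How far the *Saa3* value of the TyJ lines rests on BXD34/TyJ was not tested. With this split the test over all families called 18.7% of genes in males and 17.5% in females. The share of genes called in the contrast of TyJ against RwwJ lines alone was not computed. BXH and CXB hold 2 or 3 libraries per sex, and no member passed in them, in contrasts that called 0.0582% (BXH) and 0.0258% (CXB) of genes in females and 1.94% and 0.835% in males. No member passed in males for classical strains, with 6% of genes called, or AXB/BXA lines, with 1.48%.

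**Figure D4:**
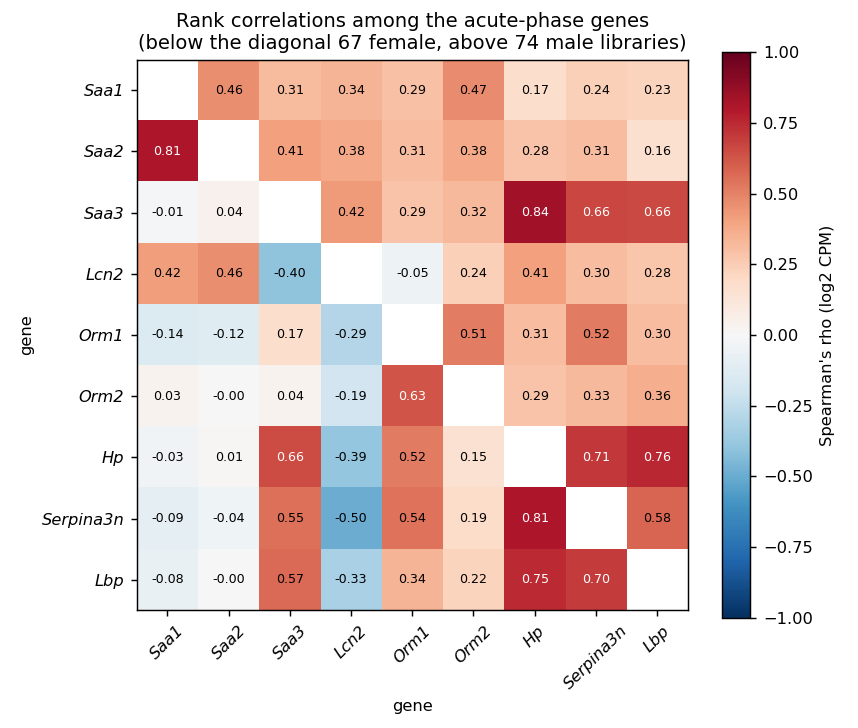
Spearman's rho between the log2 CPM of each pair of genes, below the diagonal across 67 female and above it across 74 male libraries. *Saa3*, *Hp*, *Serpina3n* and *Lbp* form a block of positive values in both sexes (0.55 to 0.84), and the *Lcn2* values with them are negative in females and positive in males.

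Relations among the members were computed within each sex over 36 pairs (72 in all, permutation tests, adjusted over the 72). They were not computed over all pairs of genes, so whether the members exceed the general share is not known. *Saa3*, *Hp*, *Serpina3n* and *Lbp* correlated in all 6 of their pairs in both sexes. Spearman's rho ranged from 0.55 to 0.81 in females and from 0.58 to 0.84 in males, each with an adjusted p of 4.5e-05, which is the smallest the resamples can give here. Without the 2 libraries farthest from the median, rho ranged from 0.54 to 0.80 and from 0.55 to 0.83. The closest pair was *Hp* with *Serpina3n* in females (rho = 0.81, r = 0.78) and *Hp* with *Saa3* in males (rho = 0.84, r = 0.82). In females r was lower than rho for pairs with *Saa3*, at 0.39 with *Serpina3n* and 0.38 with *Lbp* (adjusted p = 0.0031 and 0.0032).

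*Lcn2* stood outside this block in females. There it correlated negatively with *Serpina3n* (rho = -0.50, adjusted p = 0.00014), *Saa3* (-0.40, adjusted p = 0.0024), *Hp* (-0.39, adjusted p = 0.0038), *Lbp* (-0.33, adjusted p = 0.014) and *Orm1* (-0.29, adjusted p = 0.026), and positively with *Saa1* (0.42, adjusted p = 0.0014) and *Saa2* (0.46, adjusted p = 0.00039). The value for *Orm1* did not pass by Pearson's r (-0.26, adjusted p = 0.054), and that for *Lbp* did not pass on log2(TPM + 1) (-0.20, adjusted p = 0.14). In males *Lcn2* correlated positively with *Saa3* (0.42, adjusted p = 0.00056), *Hp* (0.41, adjusted p = 0.00081), *Serpina3n* (0.30, adjusted p = 0.015) and *Lbp* (0.28, adjusted p = 0.026). By Pearson's r the male value for *Lbp* was 0.13 (adjusted p = 0.37). The difference between the sexes in these relations was not tested. *Saa1* and *Saa2*, which share transcript sequence, had rho = 0.81 in females and 0.46 in males. *Orm1* and *Orm2* had rho = 0.63 and 0.51.

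**Figure D5:**
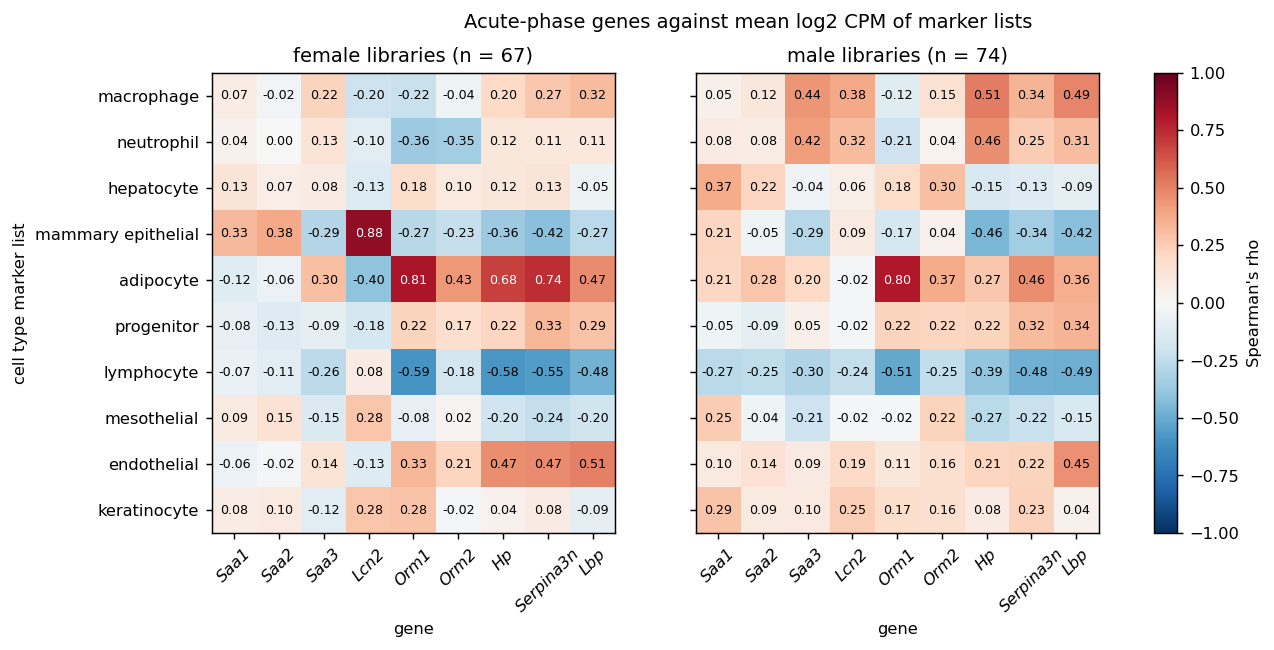
Spearman's rho of each gene with the mean log2 CPM of 10 cell type marker lists, across 67 female and 74 male libraries. The highest values are *Lcn2* with the mammary epithelial list in females (0.88) and *Orm1* with the adipocyte list in both sexes (0.81 and 0.80).

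Marker lists of 10 cell types were set against the members (180 relations, permutation tests, adjusted over the 180). The share of all genes that pass with each list was not computed. These relations depend on the scale: 52 passed on log2 CPM, the scale of the values below unless another is named, and 66 on log2(TPM + 1), where 9 were lost and 23 gained, and none of those that passed on either scale changed sign. *Orm1* followed the 5 adipocyte markers in both sexes, with rho = 0.81 in females and 0.80 in males (both adjusted p = 0.00023). In females *Serpina3n* (0.74), *Hp* (0.68) and *Lbp* (0.47) also correlated with them, and in males *Serpina3n* (0.46) and *Lbp* (0.36). Female *Saa3* had rho = 0.30 with this list (adjusted p = 0.046) but r = 0.03 (adjusted p = 0.86). On log2(TPM + 1) male *Saa3* (0.44) and *Hp* (0.42) passed as well (both adjusted p = 0.0011). *Orm2* had rho = 0.43 and 0.37 in females and males, and *Lcn2* correlated negatively with this list in females (-0.40, adjusted p = 0.0060). Summed adipocyte markers ranged from 5445 to 61550 TPM in females and from 12048 to 63720 TPM in males, and all 5 were lower in females (median log2FC -0.61), a difference that moved in the same direction as *Hp*, *Serpina3n*, *Lbp* and *Saa3*. Its part in those differences was not tested.

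Endothelial markers were lower in females in 3 of 4 (median log2FC -0.33). The remaining marker, *Vwf*, did not pass (0.12, adjusted p = 0.22, edgeR). With library totals *Vwf* was called higher (0.23, adjusted p = 0.011, edgeR), as it was on log2(TPM + 1) (0.29, adjusted p = 0.00079, limma). The endothelial list correlated with *Lbp* in both sexes (rho = 0.51 in females, adjusted p = 0.00064, and 0.45 in males, adjusted p = 0.00069) and in females with *Hp* (0.47, adjusted p = 0.00064), *Serpina3n* (0.47, adjusted p = 0.00066) and *Orm1* (0.33, adjusted p = 0.025). On log2(TPM + 1) the list also passed with *Saa3* in both sexes (0.43 and 0.36) and with *Hp* (0.44) and *Serpina3n* (0.36) in males. The mammary list, higher in females, correlated negatively with *Hp* (-0.36 in females, adjusted p = 0.013, and -0.46 in males, adjusted p = 0.00039) and *Serpina3n* (-0.42, adjusted p = 0.0033, and -0.34, adjusted p = 0.013), and in males with *Lbp* (-0.42, adjusted p = 0.00082) and *Saa3* (-0.29, adjusted p = 0.048, and 0.074 without NZW/LacJ). On log2(TPM + 1) neither female value passed (-0.21 for both genes, adjusted p = 0.18 and 0.17), and all 4 male values did. The part of these cells in the sex differences was not tested.

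Macrophage markers, 6 of 6 lower in females (median log2FC -0.46, 4 of 6 with library totals), correlated in males with *Hp* (0.51, adjusted p = 0.00037), *Lbp* (0.49), *Saa3* (0.44), *Lcn2* (0.38) and *Serpina3n* (0.34, adjusted p = 0.016). In females the values were 0.20, 0.32, 0.22, -0.20 and 0.27, of which *Lbp* passed by rho (adjusted p = 0.034, and 0.053 without the 2 libraries that went against their label). On log2(TPM + 1) the female values passed for *Lbp* (0.49, adjusted p = 0.00051), *Saa3* (0.45, adjusted p = 0.0011), *Serpina3n* (0.42, adjusted p = 0.0022) and *Hp* (0.36, adjusted p = 0.012), so whether they pass in females depends on the scale. Neutrophil markers, with *S100a8* lower in females and the neutrophil-restricted *Ly6g* at a median of 0 TPM in both sexes, correlated in males with *Hp* (0.46), *Saa3* (0.42), *Lcn2* (0.32) and *Lbp* (0.31, with r = 0.15 and adjusted p = 0.34). In females none of these 4 passed on log2 CPM (0.12, 0.13, -0.10 and 0.11), while on log2(TPM + 1) *Saa3* (0.38, adjusted p = 0.0065), *Lbp* (0.35, adjusted p = 0.014), *Hp* (0.31, adjusted p = 0.032) and *Serpina3n* (0.30, adjusted p = 0.041) did. Lymphocyte markers, whose sums ranged from 5.23 to 982 TPM in females and from 3.49 to 693 TPM in males, correlated negatively with *Orm1*, *Hp*, *Serpina3n* and *Lbp* in both sexes (rho from -0.59 to -0.39), though on log2(TPM + 1) female *Lbp* (-0.27, adjusted p = 0.071) and male *Hp* (-0.24, adjusted p = 0.090) did not pass. None of the 6 lymphocyte markers passed the sex test, and the part of these cells in the members' values was not tested.

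Other acute-phase genes showed no common direction, and their shares were near those of all genes tested (29.8% lower and 28.4% higher in females). Of 21, 18 were tested, 6 were lower and 5 higher in females, and 7 did not pass, with a median log2FC of -0.01. Among those lower in females were *Lrg1*, a leucine-rich secreted glycoprotein (-1.12, adjusted p = 2.7e-12), *Serpina1a*, *Steap4* and the metallothioneins *Mt1* and *Mt2*. Higher were the fibrinogen chains *Fgg* (2.46, adjusted p = 6.4e-06) and *Fgb* (2.13), ceruloplasmin *Cp* (0.46, adjusted p = 1.3e-07), *Ptx3* and complement *C3*. The third fibrinogen chain, *Fga*, had a log2FC of -0.04 (adjusted p = 0.96). All p are from edgeR.

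Of the 8 inducing cytokines, 7 were tested. *Lif* (0.84, adjusted p = 2.8e-11, edgeR), *Il1a* (0.89, adjusted p = 0.031) and *Il11* (0.30) were higher in females and none lower, while *Il1b*, *Tnf*, *Osm* and *Ifng* did not pass. *Il6* did not pass the filter, at a median over the 59 strains of 0.239 TPM in females and 0.294 TPM in males. Among 8 cytokine receptors 4 were lower in females (*Il6ra*, *Il1r1*, *Tnfrsf1a* and *Tnfrsf1b*) and *Lifr* was higher, but with library totals only *Tnfrsf1a* remained lower. Of all genes tested with TMM, 29.8% were lower and 28.4% higher in females.

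Where 28.4% of all genes tested were higher in females, 8 of 12 transcription factors and feedback genes were, with a median log2FC of 0.21. They were *Stat3* (0.20, adjusted p = 4.6e-07, edgeR), its feedback inhibitor *Socs3* (0.62, adjusted p = 1.5e-05), *Cebpd* (0.31), *Nfkb1*, *Nfkb2*, the NF-kB inhibitor *Nfkbia* (0.35), *Nfkbiz* and *Bcl3* (0.52). *Nfkb2* did not pass with RLE size factors (adjusted p = 0.057). The glucocorticoid receptor *Nr3c1* was lower (-0.16, adjusted p = 0.0011), a call lost with library totals (adjusted p = 0.26).

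Of 10 binding partners of the members 3 were lower and 4 higher in females, against 29.8% and 28.4% of all genes tested. *Cd14*, the co-receptor to which LBP passes lipopolysaccharide, was higher (1.23 ± 0.12, SE, adjusted p = 1.5e-13, edgeR), whereas *Tlr4*, the signalling receptor, was lower (-0.27, adjusted p = 2.1e-05). *Cd163*, the macrophage receptor for haptoglobin bound to hemoglobin, was lower (-0.46, adjusted p = 0.0018), as was *Cd36* (-0.68). *Slc22a17* (0.65, adjusted p = 1.0e-10) and *Lrp2* (0.51, adjusted p = 0.0027), which encode receptors of lipocalin 2, were higher, and so was *Tlr2* (0.19, adjusted p = 0.048), though not with RLE size factors (adjusted p = 0.057).

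The genes whose pattern was most like each member were found by Spearman's rho over all libraries of both sexes after removing each sex's mean, among 16855 genes with the members left out. For *Hp* they were *Lrg1* (0.83), *Trp53inp2* (0.82) and *Pam* (0.80). For *Lbp* they were *Cdkl4* (0.82), *Ptchd4* (0.82) and *Trp53inp2* (0.80). For *Serpina3n* they were its neighbours in the same gene cluster *Serpina3m* (0.87) and *Serpina3c* (0.80), which have similar sequences, and *Cavin3* (0.80). *Saa3* was most like *Cstb* (0.73), *Itgad* (0.73) and *Ubd* (0.72), and *Lcn2* most like *Cyb561* (0.67), *Cd14* (0.67) and *Epn3* (0.66). *Orm1* was most like *Cyb5a* (0.84), *Hsbp1* (0.84) and *Cnih1* (0.83), and those most like *Orm2* included *Ccnd2* (0.54) and *Marc1* (0.53). These are descriptions, since genes share libraries and depth.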

How the data were processed

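Bulk iWAT RNA-seq of 67 female and 74 male libraries was taken from a table of estimated counts and a table of TPM, both deposited by the authors. The authors made stranded paired-end libraries and quantified transcripts with kallisto 0.46.1 against Ensembl mouse transcripts (GRCm38), summed to genes by tximport. The deposited estimated counts, 30.3% of which were not whole, were rounded. The deposited TPM were used for levels and, as log2(TPM + 1), as an alternative scale for tests and correlations.

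Sex and strain were tested with edgeR 4.0.16 (quasi-likelihood, TMM, filterByExpr) on 59 matched strains as ~ Strain + Sex, and families within each sex, with Benjamini-Hochberg adjustment over all genes tested. Log2 CPM used a prior count of 2. Correlations and the BXD comparison used two-sided permutation tests with 100000 resamples in Python 3.11.15. DESeq2 1.42.0, limma 3.58.1, other scalings, filters and left-out strains were alternatives, and fits that left out a strain reused the dispersion trend of all 59. The strain term pairs the libraries because both are of 1 inbred strain, and paired deviations correlated above 0.1 in 45 of 59 pairs (mean 0.407). The procedure was tested on simulated counts.

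All 9 members, genes of 5 pathway lists and 10 marker lists, and the 3 most alike genes per tested member are named, except for some genes that are not reported here. Members and lists were chosen with earlier results of these data known. Total depth was 6269154 to 78562648 estimated counts, and p-values measure the spread between these libraries. The labels name no batch, and the study's methods describe batch effects as negligible in their own check. Symbols paired 35856 of 36558 identifiers.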

Additional observations from a re-analysis of the deposited data

Results flagged for a closer look

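Among the 9 AXB/BXA female libraries, the only group of 4 to 10 libraries tested for a single library far from the others (gap to the nearest library over the whole range above 0.493), 6 of 9 members had such a library. The chance rate of about 1 in 20 for each group holds for independent, normally distributed values. These are skewed TPM, and some of the libraries are the same for 2 members, so that rate does not apply here. *Saa3* was 1677 TPM in AXB12/PgnJ against 93.5 TPM in the next library. *Saa1* was 8.22 TPM and *Saa2* 5.92 TPM in BXA2/PgnJ, against 2.47 and 1.32 TPM in the next. *Lcn2* was 153 TPM in AXB13/PgnJ against 87.2 TPM. *Orm2* was 13.7 TPM and *Lbp* 287 TPM in BXA8/PgnJ, against 6.06 and 148 TPM. The AXB12/PgnJ female also held the highest macrophage marker sum (6038 TPM), and the BXA2/PgnJ female the highest female hepatocyte marker sum (1516 TPM). The part of these cells in the values was not tested.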

How the results depend on the processing

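The number of members called for sex stayed between 4 and 6 over 17 alternatives (5 in the fit reported), and was 5 in each of the 5 fits that left out 1 strain. Without the strain term (no replicate block) 4 members were called. *Saa3* turned positive there, at 0.25 on the matched strains and 0.049 on all libraries, neither past the threshold, and the cause was not tested. Log2FC of the other called members ranged from 3.35 to 3.98 for *Lcn2*, -1.80 to -1.48 for *Hp*, -1.14 to -0.73 for *Serpina3n* and -1.07 to -0.74 for *Lbp*. The number called for strain was 6 under 9 alternatives and 8 of 9 without a filter, where *Saa1* and *Saa2* were tested too. The family count in females, 1 in the fit reported, was 0 on log2(TPM + 1) and 0 without AXB12/PgnJ (added after seeing the data), and 2 without a filter, 2 with BXD split into TyJ and RwwJ lines, and 2 in the fit of both sexes with strain as a random replicate block. In males the split gave 1 against 0. The AXB/BXA value of female *Saa3* turned to -0.41 without AXB12/PgnJ, which held the high value. Over the whole table, 4104 genes were lower and 4086 higher in females without the block, against 4988 and 4759 with it. At the median depth 3 counts equal 0.0992 CPM, which limits *Saa1* and *Saa2*. Of the 180 relations with marker lists, 52 passed on log2 CPM and 66 on log2(TPM + 1), with 32 calls that differed. Of the 72 relations among members 4 calls differed.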
